A study of Arabidopsis thaliana with 27 samples.

Results

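Shoots of *Arabidopsis thaliana* Col-0 that lacked iron and phosphate together (−Fe−P) were compared with shoots that lacked iron alone (−Fe+P) at 52 h after transfer, which gives the effect on transcripts of withdrawing phosphate together with iron over that of withdrawing iron alone. The comparison used 6 of the 27 RNA-seq samples of the study, 3 per group, and took in all 18910 genes whose mean over the 27 samples reached 1 TPM (a transcript level scaled for length and library size). Seedlings had grown for 7 days on complete medium (+Fe+P) under continuous light before transfer to fresh +Fe+P medium or to medium without iron, with phosphate (−Fe+P) or without it (−Fe−P), and shoots were taken after 39, 52 and 76 h. All plants were wild type and carried no transgene. Iron was absent from the medium of both groups compared here, so the main comparison is one between plants that were short of iron. None of the 27 samples came from medium with iron and without phosphate. The response to phosphate removal in plants with iron could therefore not be analysed, and an effect that depends on iron lack cannot be told apart from one that does not. The −P medium still held a little phosphate. Each library came from whole shoots, in which fewer cells of a type and less RNA per cell cannot be told apart. Nothing in the labels says whether the 3 samples of a group came from separate plantings, so the p-values measure the spread between these samples only.

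Plants take up phosphate as inorganic phosphate and keep its level in the cell steady with a signaling chain. SPX domain proteins bind the transcription factor PHR1 while phosphate is plentiful and release it when phosphate runs short, and PHR1 then binds a short promoter element called P1BS. Its targets recover phosphate from nucleic acids and phospholipids, replace phospholipids with sulfolipids and galactolipids, carry phosphate into cells, and spare phosphate in metabolism. Iron lack acts on the same leaves in another way, since the photosystems, chlorophyll synthesis and respiration all depend on iron cofactors.

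The 6 libraries held 31.4 to 47.4 megareads, as inferred from the steps between TPM values, and genes with a mean of 1 to 1.1 TPM rested on medians of 26.5 to 39.0 reads per library. Pairs of libraries within a group correlated at 0.9836 to 0.9945 over the tested genes. The −Fe−P replicate 1 lay toward −Fe+P: it was the lowest of the 3 −Fe−P libraries in 195 of the 229 genes called higher below, and the highest of the 3 in 143 of the 188 genes called lower. Over all 18910 tested genes it was the lowest in 8410 and the highest in 7000. Without it 299 genes were higher and 281 lower. Leaf mesophyll markers were high in all 6 samples, with levels that summed to 36100 to 40100 TPM under −Fe+P and 36800 to 45300 TPM under −Fe−P. Of 15 root markers, 7 were under 1 TPM in all 6 samples and none was at 0 in all of them, and they summed to 27.2 to 30.1 TPM (−Fe+P) and 18.0 to 25.7 TPM (−Fe−P). FRO2 and IRT1, which are also genes of the iron deficiency response, carried much of these sums, and without them the sums were 9.69 to 11.5 TPM (−Fe+P) and 7.77 to 10.2 TPM (−Fe−P).

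Removing phosphate raised 229 genes (1.21% of those tested) and lowered 188 (0.994%), where a call needed 2-fold or more and an adjusted p under 0.05 in limma's test on log2(TPM + 0.5). Fold changes are given on this log2 scale as −Fe−P over −Fe+P with their standard error, and they understate the change of genes near 0 TPM. The size of the response differed between the directions. Among the higher genes 64 changed at least 4-fold, 30 at least 8-fold and 12 at least 16-fold, whereas among the lower genes 5 changed at least 4-fold and 1 at least 8-fold. With the adjusted p alone the split ran the other way, with 1848 genes (9.77%) higher and 3283 (17.4%) lower, so that many genes fell by less than 2-fold. The 6 values did not overlap between the groups in 226 of the 229 higher genes and 187 of the 188 lower genes, and over all tested genes this held for 13% in the higher and 23.8% in the lower direction. The median difference over all tested genes was −0.03. Counts of called members in the lists below compare with the shares of 1.21% (higher) and 0.994% (lower) over all tested genes. Of the higher genes, 38 were below a mean of 1 TPM in both −Fe+P and +Fe+P at 52 h, so they passed the filter on low values only through −Fe−P or through other times. Among them 34 were below that mean in −Fe+P and +Fe+P at every time and so passed only through −Fe−P.

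The 12 genes with the largest increase are mostly known phosphate starvation genes, several of them almost silent with phosphate present. IPS1, a noncoding RNA of phosphate starvation, was at 0.109, 0.112 and 0.0537 TPM in −Fe+P and at 29.6, 65.5 and 65.0 TPM in −Fe−P (6.42 ± 0.22). PEPC1 (AT1G17710), annotated as a phosphatase and unrelated to PEP carboxylase, was at 0.700, 0.899 and 0.621 TPM in −Fe+P and at 43.7, 115 and 120 TPM in −Fe−P (6.11 ± 0.25). In both genes the −Fe−P replicate 1 was the lowest of its group and still far above every −Fe+P library. In reads, IPS1 had 2, 2 and 1 in −Fe+P against 531, 826 and 909 in −Fe−P, a ratio per depth of 558 with an exact 95% counting interval of 239 to 1720. PAP14, a purple acid phosphatase, had 2, 1 and 1 reads against 678, 1387 and 1471, a ratio of 1090 (425 to 4000). These intervals cover counting error only, since PCR copies were not marked.

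Other genes of this group belong to the same few functions. The noncoding RNA AT5G03545, known as AT4, was at 12.2, 18.6 and 8.67 TPM in −Fe+P and at 372, 676 and 711 TPM in −Fe−P (5.43 ± 0.29). MGDC, a galactolipid synthase also called MGD3, went from 2.30, 4.32 and 3.20 TPM to 89.6, 163 and 142 TPM (5.12 ± 0.26), and PS2, a phosphatase annotated as an inorganic pyrophosphatase, from 10.3, 13.7 and 13.1 TPM to 244, 433 and 468 TPM (4.84 ± 0.24). SPX3, of the SPX family that restrains PHR1, went from 0.129, 0.166 and 0.222 TPM to 13.3, 24.5 and 26.1 TPM (4.96 ± 0.20). None of these groups of 3 overlapped. The remaining 5 of the 12 are little characterised, namely AT1G23110 (5.95), AT3G43110 (5.62), AT3G25240 (5.37), AT5G20790 (4.95) and AT1G08310 (4.83), of which AT1G08310 is annotated as an alpha/beta hydrolase and AT3G25240 by a domain of unknown function.

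**Figure D1:**
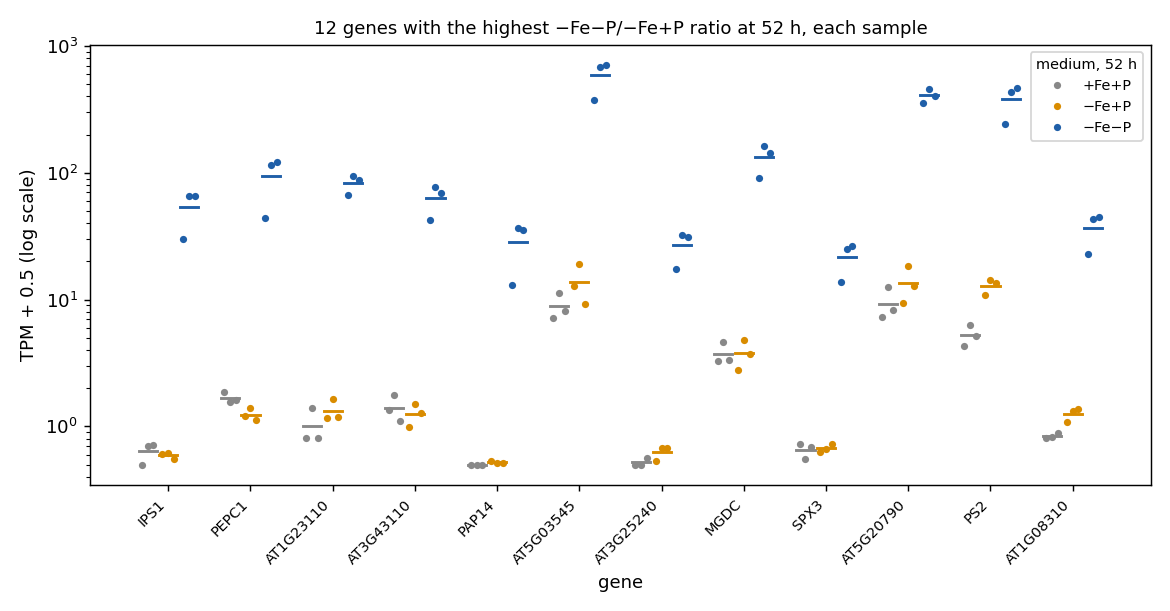
Level of the 12 genes with the largest increase at 52 h in +Fe+P, −Fe+P and −Fe−P, on a log axis in TPM plus the pseudocount of 0.5; each point is 1 library and each bar a group mean. The −Fe−P libraries lie above every −Fe+P library in all 12 genes, and IPS1 shows the largest difference (6.42 on the log2 scale).

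Of the 24 genes listed for phosphate sensing and signaling, 18 were tested, 11 were higher and none lower. The 11 are 61.1% of those tested, against 1.21% over all genes. The list's median was 1.39 against −0.03 over all genes. Of those tested, 5 were below a mean of 1 TPM in both −Fe+P and +Fe+P at 52 h and so entered the test through −Fe−P or other times. SPX1 was at 41.8, 55.5 and 31.2 TPM in −Fe+P and at 377, 552 and 585 TPM in −Fe−P (3.56 ± 0.19, adjusted p = 4.2e-12), and SPX2 rose by 1.72. The levels of SPX1 show that its increase started from a gene well expressed with phosphate, unlike that of SPX3. PHR1 itself was at 34.7, 32.3 and 32.6 TPM in −Fe+P and at 29.6, 37.6 and 32.4 TPM in −Fe−P, groups that overlapped (−0.01, adjusted p = 0.954), with a sign that turned under other settings. PHO2, the ubiquitin conjugating enzyme that removes phosphate transporters and a target of miR399, was at 63.8, 68.8 and 63.8 TPM in −Fe+P and at 165, 195 and 162 TPM in −Fe−P (1.40 ± 0.18). The inositol pyrophosphate kinase family member AT5G15070 (1.41) and the MYB-like factor AT1G68670 (1.02) also rose, the latter close to the 2-fold limit and below it without −Fe+P replicate 3 (0.96), −Fe−P replicate 2 (0.94) or 3 (0.91).

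The primary transcripts of 3 microRNAs of this list were also called higher, from few reads. MIR399c had 6, 7 and 8 reads in the −Fe−P libraries against 0 in each −Fe+P library, at least 2.97-fold higher against a floor of 3 reads per library. MIR827 had 14, 4 and 9 reads against 0, at least 3.53-fold higher, and MIR399d had 3, 1 and 3 against 0, for which no fold is given. Setting MIR399c and MIR827 at their bounds left the list's median at 1.39. Both bounds lie above that median, so this step could not move it. MIR399d has no bound and kept its fitted value of 1.37, close to the median. The mature miRNAs that these loci encode, and the sites in the noncoding RNAs IPS1 and AT5G03545 that mimic a miR399 target, are shown because precursor and mimic rose together in −Fe−P. Sequences are from RefSeq (TAIR10.1), 5′ to 3′, with the seed (bases 2 to 8) in capitals for the miRNAs and with the bases that pair with miR399c-3p in capitals for the mimic sites. The miR399 members share their seed, and miR827 has another. In each mimic 18 of the 21 miRNA bases pair and 3 bases in the middle stay unpaired, and the sites of IPS1 and AT5G03545 differ only within that bulge.
miR399c-3p (chr5:24962568-24962588, + strand): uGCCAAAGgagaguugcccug
miR399d (chr2:14442988-14443008, − strand): uGCCAAAGgagauuugccccg
miR827 (chr3:22122811-22122831, − strand): uUAGAUGAccaucaacaaacu
IPS1 mimic site (chr3:3051224-3051247, + strand): ttGGGCAACTtctaTCCTTTGGCA
AT5G03545 mimic site (chr5:895149-895172, + strand): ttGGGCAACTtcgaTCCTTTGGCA

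The P1BS element, searched as GNATATNC on both strands in the 250 bases before each gene's annotated start, was present in 5.5% of the promoters of 18681 tested genes. It was present in 27.8% (63 of 227) of the promoters of higher genes with a promoter in the reference, in 42.2% (27 of 64) of those of genes raised at least 4-fold and in 4.26% of those of lower genes. A match is a description of the letters, not a bound site. No match was found in this window for IPS1 and PEPC1, the genes with the largest increase, or for MGDC and AT5G20790. Windows are shown only for genes among the strongest that hold a match, on the strand of the gene. The element is in capitals, with 20 flanking bases where the promoter reaches that far. The elements of AT1G08310, PS2 and MGD2 were the palindrome GAATATTC, and those of AT5G03545, SPX3 and PAP14 differed from it at the bases written N in the search.
AT5G03545 (chr5:894536-894581, + strand): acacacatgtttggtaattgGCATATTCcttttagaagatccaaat
SPX3 (chr2:18606300-18606347, + strand): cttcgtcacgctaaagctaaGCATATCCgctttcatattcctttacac
PAP14 (chr2:19266533-19266580, − strand): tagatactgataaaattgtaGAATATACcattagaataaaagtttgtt
AT1G08310 (chr1:2618596-2618643, + strand): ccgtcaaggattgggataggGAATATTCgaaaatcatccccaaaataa
PS2 (chr1:27466538-27466585, − strand): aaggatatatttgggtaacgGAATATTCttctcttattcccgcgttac
MGD2 (chr5:6896429-6896462, + strand): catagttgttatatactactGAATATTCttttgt

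Phosphate transport changed in part of its genes. Of 30 listed, 20 were tested, 7 were higher (35%, against 1.21% over all genes) and none lower, with a median of 0.10. PHT1;4, a high-affinity phosphate importer, was at 6.32, 7.93 and 8.12 TPM in −Fe+P and at 38.1, 52.1 and 49.2 TPM in −Fe−P (2.56 ± 0.20, adjusted p = 2.08e-09). G3Pp1, a glycerol-3-phosphate permease family member (2.23), PHO1;H1, a homologue of the phosphate exporter PHO1 (2.04), and PHF1, which helps PHT1 transporters leave the endoplasmic reticulum (1.69), rose as well. PHT1;5 (1.54), PHT1;1 (1.29) and PHT1;2 (1.13, adjusted p = 0.0306) rose from levels of 0.237 to 2.15 TPM, and PHT1;1 and PHT1;2 are near-identical neighbours whose reads the counting could have split. The PHT1;2 call was lost without any one of 5 of the 6 libraries, with adjusted p from 0.0505 to 0.0888 in limma. PHO1 passed the adjusted p below 2-fold (0.91). The plastid importer PHT2;1 went the other way by less than 2-fold (−0.41), from 203, 203 and 277 TPM to 173, 183 and 154 TPM, and ANTR2, the plastid transporter also named PHT4;4, did not pass (−0.22, adjusted p = 0.0816).

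Phosphatases and ribonucleases, which free phosphate from organic sources and RNA, held 12 higher genes and no lower one among 27 tested (32 listed, median 0.14). The 12 are 44.4% of those tested, against 1.21% over all genes. Of the tested genes, 5 were below a mean of 1 TPM in both −Fe+P and +Fe+P at 52 h, so that they entered the test through −Fe−P or other times and the count rests partly on them. The median near 0 and the 12 calls describe a split family, of which 13 members did not pass the adjusted p and PAP8 passed it in the lower direction below 2-fold (−0.63). PAP17, an acid phosphatase known from phosphate starvation and senescence, was at 29.7, 37.4 and 25.4 TPM in −Fe+P and at 221, 292 and 262 TPM in −Fe−P (3.06 ± 0.20). PAP12, a main secreted acid phosphatase, was at 23.5, 24.7 and 21.7 TPM against 91.8, 106 and 99.4 TPM (2.06 ± 0.13). RNS1, a secreted S-like ribonuclease, was at 0.141, 0.466 and 0.585 TPM against 5.34, 8.56 and 11.5 TPM (3.29 ± 0.27), and the vacuolar RNS2 was just above 2-fold (1.02 ± 0.08) and just below it without −Fe+P replicate 1 (0.99) and without −Fe−P replicate 2 (0.94).

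Several purple acid phosphatases were seen only as traces with phosphate. PAP24 was at 0.281, 0.161 and 0.108 TPM in −Fe+P and at 3.42, 9.95 and 9.77 TPM in −Fe−P (3.46). PAP25 had 1, 0 and 1 reads in −Fe+P against 65, 101 and 113 (ratio 172, interval 47.1 to 1420), and PAP5 had 1, 2 and 0 against 19, 56 and 76 (ratio 62.0, interval 20.8 to 304). The −Fe−P replicate 1 was under 50% of each of the other −Fe−P libraries in PAP5, PAP14, PAP24 and PAP25, and in 14 of the 229 higher genes in all, IPS1 and PEPC1 among them. PAP16 (1.69) and AT1G13750 (2.28) complete the purple acid phosphatases called, which were 8 of the 21 tested genes with that product name.

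Membrane lipid remodeling, in which phospholipids are cut and replaced by lipids without phosphate, had many genes that rose. Of 26 genes listed 21 were tested, 11 were higher and none lower, 17 passed the adjusted p in the higher direction, and the median was 1.56. The 11 are 52.4% and the 17 are 81% of those tested, against 1.21% and 9.77% over all genes. SQD1, which makes the UDP-sulfoquinovose for sulfolipids, was at 82.9, 82.9 and 87.9 TPM in −Fe+P and at 482, 491 and 451 TPM in −Fe−P (2.48 ± 0.12, adjusted p = 8.32e-13). SQD2, the sulfolipid synthase, was at 53.0, 58.5 and 61.4 TPM against 366, 496 and 478 TPM (2.93 ± 0.14), and the plastid UDP-glucose pyrophosphorylase UGP3 of the same route rose by 1.56. These 3 genes kept replicate values tight, and their groups lay far apart.

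The galactolipid and phospholipase steps rose too. MGD2, a galactolipid synthase of the plastid outer envelope, was at 5.58, 7.04 and 4.47 TPM in −Fe+P and at 75.2, 106 and 100 TPM in −Fe−P (3.93 ± 0.17), while MGD1, which makes the bulk of the thylakoid galactolipid, moved by 0.43 and DGD1 by 0.98, both under 2-fold. PLDP2, a phospholipase D (3.83), and NPC4, a nonspecific phospholipase C (1.99), cut phospholipids. SRG3, the glycerophosphodiester phosphodiesterase also called GDPD1, was at 15.6, 20.9 and 15.0 TPM against 216, 272 and 246 TPM (3.80 ± 0.19), and GDPD6 (2.92), GDPD2 (1.72) and GDPD5 (1.69) of the same family rose. NPC6 was the member that passed in the lower direction, below 2-fold (−0.27). AT5G20400, which was higher by 1.37, ends 112 bases before the start of MGD2 on the same strand, and whether the genes share reads was not tested.

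**Figure D2:**
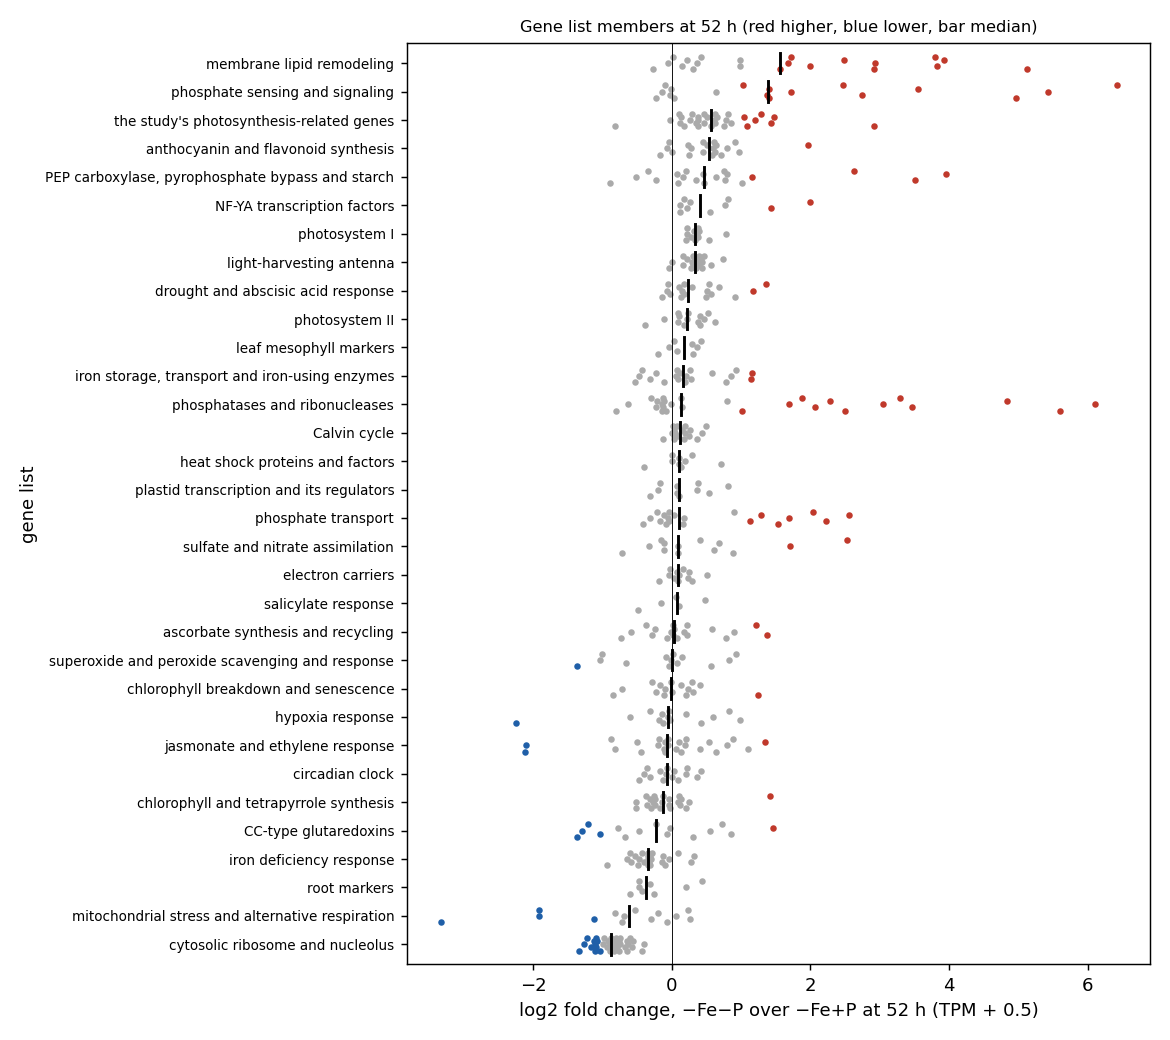
Log2 difference of −Fe−P over −Fe+P at 52 h for the tested members of each gene list; each point is 1 gene, red where called higher, blue where called lower and grey otherwise, and the bar marks the median of the list. Lipid remodeling (median 1.56) and phosphate sensing (1.39) lie highest, and the cytosolic ribosome and nucleolus list lies lowest (−0.87), against −0.03 over all genes.

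Carbon metabolism genes listed for sparing phosphate rose only in part. Of 20 tested genes for PEP carboxylase, pyrophosphate-driven bypasses and starch, 4 were higher and none lower (median 0.46). The 4 are 20% of those tested, against 1.21% over all genes. PPCK2, a kinase that activates PEP carboxylase, was at 0.284, 0.588 and 0.281 TPM in −Fe+P and at 8.91, 18.3 and 13.6 TPM in −Fe−P (3.96 ± 0.21), PPCK1 rose by 2.63, and PPC1, a PEP carboxylase, rose by 1.16. BAM5, a beta-amylase, was at 3.33, 3.72 and 7.14 TPM against 57.9, 48.0 and 64.2 TPM (3.51 ± 0.26). Another PEP carboxylase, PPC3, went the other way below 2-fold (−0.89), and the pyrophosphate-dependent phosphofructokinase subunits AT1G12000 (−0.51) and AT1G20950 (−0.34) also passed the adjusted p in the lower direction. Of the sulfate and nitrate genes, 2 of 13 tested were higher, both sulfate transporters: SULTR1;3 went from 1.67, 1.98 and 2.14 TPM to 12.3, 13.4 and 15.0 TPM (2.53 ± 0.19), and SULTR3;4 rose by 1.71.

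Genes of the iron deficiency response were high in both groups, and none of the 25 tested was called between them. The list's median was −0.34, 22 of its 25 members had estimates below 0, and 5 passed the adjusted p in the lower direction against 2 in the higher one. NAS1, a nicotianamine synthase, was at 29.7, 33.2 and 49.1 TPM in −Fe+P and at 29.3, 15.6 and 14.6 TPM in −Fe−P (−0.94 ± 0.21, adjusted p = 0.00165), groups separated only narrowly. The transcription factors MYB10 (−0.59) and PYE (−0.48) and NAS4 (−0.61) also passed in this direction. The 5 calls by the adjusted p are 20% of the list, near the 17.4% over all genes. Against +Fe+P at 52 h, with which both comparisons share their control samples, the median of the list was 2.11 for −Fe+P and 1.69 for −Fe−P.

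Genes of iron storage, transport and iron-using enzymes included 2 called higher of 20 tested, with no lower call and a median of 0.16. NEET, an iron-sulfur protein of plastids and mitochondria, was at 226, 213 and 206 TPM in +Fe+P, at 0.827, 0.917 and 0.643 TPM in −Fe+P and at 2.06, 2.85 and 2.33 TPM in −Fe−P (1.17 ± 0.24). NAS3, the nicotianamine synthase that falls under iron lack, was at 11.6, 8.84 and 11.6 TPM, at 0.541, 0.511 and 0.559 TPM and at 1.42, 2.58 and 1.52 TPM in the same order (1.14 ± 0.22). For both genes −Fe−P lay above −Fe+P and far below +Fe+P. Without −Fe−P replicate 2 the difference of NAS3 was 0.93, under 2-fold. The iron superoxide dismutases FSD2 (−0.43) and FSD3 (−0.53) passed the adjusted p in the lower direction below 2-fold.

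The photosystem and antenna lists held no called gene, and their medians lay slightly above that of all genes. In the antenna list 19 of 20 members had estimates above 0 and 4 passed the adjusted p (median 0.34, none called), in the photosystem I list all 12 were above 0 and 9 passed (median 0.34, none called), and in the photosystem II list 6 of 14 passed (median 0.22, none called). These shares of members that passed, 20%, 75% and 42.9%, compare with 9.77% over all genes. PSAN, a photosystem I subunit, was at 438, 327 and 282 TPM in −Fe+P and at 418, 743 and 663 TPM in −Fe−P (0.78 ± 0.19), groups that overlapped through the −Fe−P replicate 1. LHCB4.1 (0.35), PSBW (0.47) and PSBTN (0.38) passed below 2-fold, and AT1G51400, a photosystem II 5 kD protein, did not (0.62, adjusted p = 0.186), although it did without −Fe−P replicate 1 (1.09). The antenna genes are close paralogs between which the counting could have split reads. Against the shared +Fe+P samples the photosystem I list stood at −0.83 in −Fe+P and −0.56 in −Fe−P. Electron carriers (2 of 12 passed the adjusted p, median 0.09) and the Calvin cycle (2 of 18, median 0.12) held no called gene. Their shares of members that passed, 16.7% and 11.1%, compare with 9.77% over all genes.

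Chlorophyll synthesis did not move as one. HEMA1, the glutamyl-tRNA reductase at the entry of the pathway, was at 237, 223 and 251 TPM in +Fe+P, at 16.3, 12.5 and 12 TPM in −Fe+P and at 22.9, 50.9 and 43.4 TPM in −Fe−P (1.42 ± 0.25). It was the only one of 23 tested genes called, while 10 (43.5%, against 17.4% over all genes) passed the adjusted p in the lower direction below 2-fold, among them HEMC (−0.52) and GSA1 (−0.52), which act soon after HEMA1. NYC1, a chlorophyll b reductase, was at 108, 91.3 and 91.4 TPM in +Fe+P, at 16.1, 10.7 and 12 TPM in −Fe+P and at 33.8, 29.6 and 29.7 TPM in −Fe−P (1.25 ± 0.14), and it was the 1 call among 16 tested genes of chlorophyll breakdown and senescence. HEMA1 and NYC1 thus shared their order over the media, with −Fe−P between the others.

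Of 31 tested photosynthesis-related genes that the study picked from these same samples, 7 were higher and none lower, 21 passed the adjusted p, and the median was 0.57 (range −0.82 to 2.92). The 7 are 22.6% and the 21 are 67.7% of those tested, against 1.21% and 9.77% over all genes. Since the genes were chosen on these samples, neither counts nor shares are independent evidence of their direction. The called members are not photosystem genes: GDPD6, the phosphodiesterase above (2.92), AAP4, an amino acid permease (1.48), NF-YA10, a transcription factor subunit (1.44), ALN, allantoinase of purine breakdown (1.08), and the loci AT1G50110 (1.28), AT1G64360 (1.21) and AT3G16120 (1.04). ALN fell under 2-fold without −Fe+P replicate 3 (0.97) and without −Fe−P replicate 2 (0.93), and AT3G16120 without −Fe+P replicate 2 (0.97). The transcription factor bZIP58 was at 4.01, 3.28 and 4.60 TPM in +Fe+P, at 1.42, 1.52 and 1.45 TPM in −Fe+P and at 2.92, 2.33 and 3.69 TPM in −Fe−P (0.81 ± 0.23, adjusted p = 0.00947), without overlap between −Fe+P and −Fe−P and below 2-fold. PTAC16, a protein of the plastid transcription complex, differed by 0.38, and none of the 10 genes of plastid transcription was called.

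Of the ascorbate genes, VTC4 and CYT1 rose. VTC4, which makes free inositol and galactose from their phosphates, was at 32.5, 35.4 and 40.3 TPM in −Fe+P and at 96.2, 96.6 and 90.1 TPM in −Fe−P (1.38 ± 0.10). CYT1, the GDP-mannose pyrophosphorylase also called VTC1, was at 109, 114 and 96.0 TPM against 229, 265 and 251 TPM (1.22 ± 0.09). CYT1 ends close before the start of RNS2 on the same strand, and whether these genes share reads was not tested. VTC2, the GDP-galactose phosphorylase that sets the rate of the pathway, was at 406, 412 and 369 TPM against 652, 858 and 716 TPM (0.90 ± 0.12, adjusted p = 4.62e-06), below 2-fold with no overlap. The list as a whole had a median of 0.04, with 2 of 19 called, and GLDH, which makes ascorbate in the last step (−0.58), and the recycling enzyme MDAR6 (−0.73) passed in the lower direction. Among genes of superoxide and peroxide, 1 of 13 was called, BAP1, a membrane protein induced by singlet oxygen (−1.36, adjusted p = 0.0455), a call lost without any one of the 6 libraries and under several of the other settings. CAT3, a catalase (0.93), and APX1, an ascorbate peroxidase (0.82), passed the adjusted p in the higher direction below 2-fold.

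**Figure D3:**
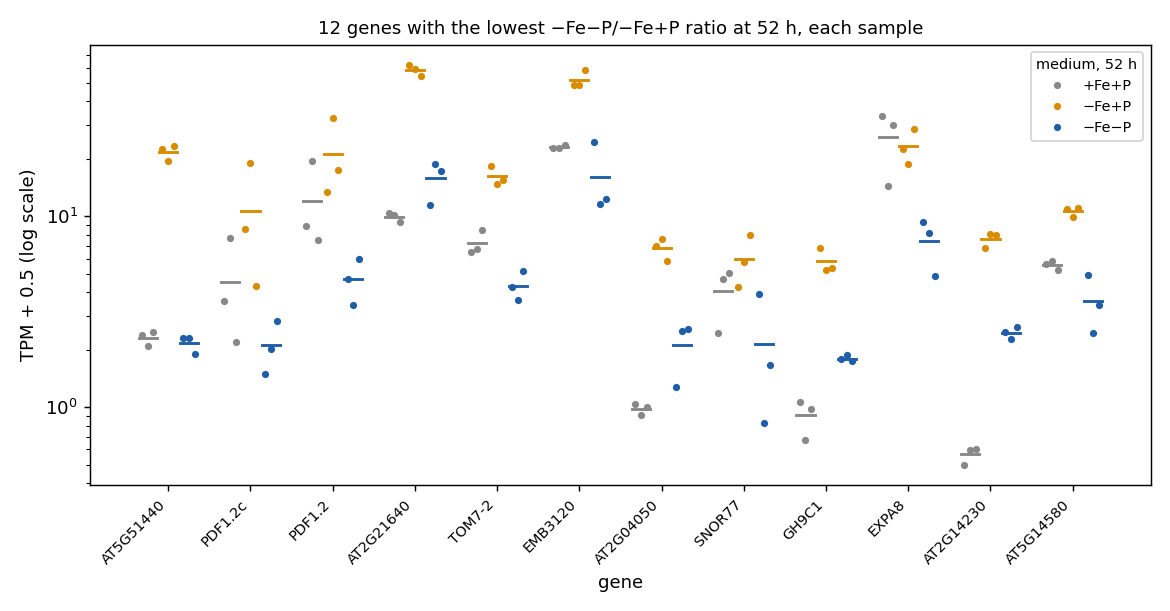
Level of the 12 genes with the largest decrease at 52 h in +Fe+P, −Fe+P and −Fe−P, on a log axis in TPM plus the pseudocount of 0.5; each point is 1 library and each bar a group mean. AT5G51440 shows the largest difference (−3.33 on the log2 scale), with −Fe−P near +Fe+P, and the −Fe−P libraries lie below every −Fe+P library in all 12.

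The gene that fell most was AT5G51440, a small heat shock protein (HSP20-like), at 21.9, 19.1 and 22.9 TPM in −Fe+P and at 1.79, 1.79 and 1.41 TPM in −Fe−P (−3.33 ± 0.18, adjusted p = 3.17e-12). With iron and phosphate it was at 1.87, 1.59 and 1.98 TPM, so −Fe−P and +Fe+P held nearly the same level. AT2G21640, a marker of oxidative stress, was at 9.92, 9.60 and 8.85 TPM in +Fe+P, at 61.7, 58.5 and 53.6 TPM in −Fe+P and at 10.9, 18.2 and 16.8 TPM in −Fe−P (−1.92 ± 0.18). AT2G04050, a MATE efflux protein, followed the same order at 0.541, 0.406 and 0.499 TPM, at 6.48, 7.08 and 5.31 TPM and at 0.780, 2.01 and 2.06 TPM (−1.74). Each of these genes was highest in −Fe+P among the media of 52 h. In −Fe−P, AT5G51440 lay near +Fe+P, whereas AT2G21640 and AT2G04050 lay above every +Fe+P library. TOM7-2, a subunit of the mitochondrial import pore, was at 17.7, 14.3 and 14.9 TPM in −Fe+P against 3.74, 3.12 and 4.64 TPM in −Fe−P (−1.91 ± 0.16), and NAC13, a transcription factor that carries mitochondrial signals to the nucleus, was at 19.9, 19.8 and 21.4 TPM against 8.83, 9.62 and 8.95 TPM (−1.11 ± 0.13).

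Of 14 tested genes of mitochondrial stress and alternative respiration, 4 were lower (AT5G51440, AT2G21640, TOM7-2 and NAC13), none was higher, 7 passed the adjusted p in the lower direction, and the median was −0.61. The 4 are 28.6% and the 7 are 50% of those tested, against 0.994% and 17.4% over all genes. The mitochondrial chaperonin HSP60 (−0.81) passed below 2-fold, and AOX1A, the alternative oxidase that is the usual marker of this signaling, did not pass (−0.30, adjusted p = 0.161). Heat shock genes outside mitochondria held no call among 9 tested (median 0.10). By product name, a grouping chosen after the values were seen, 8 of 131 tested genes named as mitochondrial were lower (6.11%, against 0.994% over all genes) and 2 were higher, with 106 of the 131 estimates below 0. Among them mtHsc70-1, a mitochondrial chaperone, went from 132, 130 and 128 TPM to 63.3, 52.4 and 54.0 TPM (−1.20 ± 0.09), PMH1, a mitochondrial RNA helicase, fell by 1.33, and APC2, an ATP and phosphate carrier of the inner membrane, rose by 1.27. The protease LON1 (−1.24) and the chaperonin HSP60-2 (−1.36), also chosen after their values were seen, are mitochondrial as well.

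A promoter element known from mitochondrial retrograde signaling, written CTTG, any 5 bases, CA, any base and G, was searched in the same windows on both strands. It was present in 1.26% of all promoters, in 6.38% (12) of those of the 188 lower genes, in 0.441% of those of higher genes, and in 28.6% (4 of 14) of those of the mitochondrial stress list. Since the element is known from signaling of this kind, its share in that list is no independent evidence. The windows of the strongest lower genes that hold it are shown, with the element in capitals, because these genes are among the 12 that fell most.
AT5G51440 (chr5:20891033-20891085, + strand): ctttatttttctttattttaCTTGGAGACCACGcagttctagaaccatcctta
AT2G21640 (chr2:9254307-9254359, + strand): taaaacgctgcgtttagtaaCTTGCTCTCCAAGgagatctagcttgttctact
AT2G04050 (chr2:1339592-1339644, − strand): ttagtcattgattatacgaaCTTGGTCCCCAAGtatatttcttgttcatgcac

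The genes of the cytosolic ribosome and nucleolus fell together. All 37 members passed the adjusted p in the lower direction (over all genes, 17.4% did), 11 were lower at 2-fold or more, and the median was −0.87 with a range of −1.34 to −0.40. Their levels summed to 6760 to 7900 TPM (−Fe+P), 4030 to 4760 TPM (−Fe−P) and 6850 to 7170 TPM (+Fe+P). AT5G27120, a NOP56/58 family protein of the small nucleolar particles, was at 63.6, 57.9 and 63.7 TPM in −Fe+P and at 32.7, 20 and 21.4 TPM in −Fe−P (−1.34 ± 0.14). FIB2, the fibrillarin that methylates ribosomal RNA, was at 56.0, 47.5 and 38.9 TPM against 25.0, 17.0 and 16.7 TPM (−1.27 ± 0.15), NAP57, the dyskerin homologue that makes pseudouridine, at 100, 92.2 and 103 TPM against 57.0, 35.5 and 36.1 TPM (−1.23), and the nucleolin NUC-L1 at 251, 226 and 228 TPM against 141, 97.2 and 99.1 TPM (−1.08). In each of them the −Fe−P replicate 1 was the highest of its group and stayed below every −Fe+P library.

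The other called members were AT2G40360 (−1.17), the scaffold protein gene RACK1C_AT (−1.13), SWA1 (−1.11), AT1G52930 (−1.10), NOP56 (−1.09), the nucleolar GTPase NSN1 (−1.09) and AT3G22660 (−1.03). Most lay close to 2-fold, and the count of 11 ran from 8, without −Fe−P replicate 2 or 3, to 15, without −Fe−P replicate 1. The telo box AAACCCTA was present in 18.9% (7 of 37) of the list's promoters and in 3.7% of all promoters, and TGGGCC in 59.5% (22 of 37) and 17%. Among the promoters of the 188 lower genes the shares were 9.57% for the telo box and 21.3% for TGGGCC. The list was put together by function, and whether its shares relate to the decrease was not tested. Members that hold these elements are shown with the element in capitals, on the strand of the gene, where TGGGCC reads GGCCCA in reverse.
AT5G27120, telo box (chr5:9540797-9540844, + strand): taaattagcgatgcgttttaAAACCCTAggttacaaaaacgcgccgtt
AT5G27120, TGGGCC (chr5:9540755-9540800, + strand): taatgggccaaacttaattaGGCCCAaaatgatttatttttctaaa
AT2G40360, telo box (chr2:16856780-16856827, − strand): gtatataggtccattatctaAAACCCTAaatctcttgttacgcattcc
NSN1, telo box (chr3:2232362-2232406, − strand): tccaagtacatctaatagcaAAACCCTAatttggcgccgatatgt

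The remaining strongly lower genes include members of defence, hypoxia and the cell wall. ERF71, below the minimum of 5 TPM for the 12 genes with the largest decrease, an ethylene response factor of the hypoxia group, was at 0.528, 0.270 and 0.209 TPM in +Fe+P, at 4.69, 3.56 and 4.76 TPM in −Fe+P and at 0.265, 0.691 and 0.623 TPM in −Fe−P (−2.25 ± 0.21). It was the 1 call among 14 tested genes of the hypoxia list, whose median was −0.05. The plant defensins PDF1.2 (−2.10) and PDF1.2c (−2.12 ± 0.51) are nearly identical, so that reads may have been split between them, and their −Fe+P libraries varied, at 13.0, 32.1 and 17.0 TPM for PDF1.2 and at 8.05, 18.4 and 3.79 TPM for PDF1.2c. GH9C1, a cellulase, was at 6.31, 4.72 and 4.87 TPM in −Fe+P against 1.28, 1.37 and 1.24 TPM in −Fe−P (−1.68), and EXPA8, an expansin that loosens walls, differed by −1.68. GH9C1 overlaps the end of NUC-L1 on the opposite strand, a more abundant gene that was also lower. Whether these 2 genes share reads was not tested. EMB3120 (−1.78), the small nucleolar RNA SNOR77 (−1.73) the locus AT2G14230 (−1.63) and AT5G14580, a polyribonucleotide nucleotidyltransferase (−1.62), complete these 12. The SNOR77 call was lost in a fit to the 6 samples alone (adjusted p = 0.06 in limma).

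Smaller groups moved in part. All 8 tested type-A response regulators, which dampen cytokinin signaling and were grouped after their values were seen, had estimates below 0 with a median of −0.67, and 3 were lower: ARR15 went from 5.26, 4.51 and 3.61 TPM to 1.51, 1.52 and 1.75 TPM (−1.23 ± 0.11), RR16 fell by 1.14 and ARR6 by 1.13. Of 15 CC-type glutaredoxins, 4 were lower (26.7%, against 0.994% over all genes), namely AT4G15700 (−1.37), AT4G15660 (−1.29), AT4G15690 (−1.21) and AT5G18600 (−1.04). AT2G30540 was higher (1.47), and the AT4G15660 to AT4G15700 genes are tandem copies that may share reads. Without −Fe+P replicate 1 AT4G15690 (−0.98) and AT5G18600 (−0.94) were under 2-fold, as was AT5G18600 without −Fe−P replicate 1 (−0.81). Among the 10 NF-YA transcription factors, known as targets of miR169, 2 were higher, NF-YA7 from 7.89, 7.88 and 9.90 TPM to 29.6, 39.8 and 37.9 TPM (2.0 ± 0.13) and NF-YA10 (1.44), and all 10 estimates were above 0.

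Stress and hormone lists added few calls. MYB90, an activator of anthocyanin synthesis, went from 3.10, 4.66 and 4.87 TPM to 21.1, 15.9 and 16.3 TPM (1.97 ± 0.30). It was the 1 call among 20 anthocyanin and flavonoid genes (median 0.54). Of these 20, 7 passed the adjusted p in the higher direction (35%, against 9.77% over all genes). P5CS1, which makes proline (1.36), and RD20, a caleosin induced by drought (1.17), were the calls among 18 drought and abscisic acid genes, with RD20 under 2-fold without −Fe+P replicate 1 (0.98) and without −Fe−P replicate 3 (0.86), and VSP2, a storage protein induced by jasmonate (1.34), was the higher call beside the 2 defensins among 25 jasmonate and ethylene genes. No gene was called among 5 tested salicylate genes, of which 1, PR5, passed the adjusted p (0.49). Of the 15 circadian clock genes none passed the adjusted p, and their median was −0.07, with a range of −0.47 to 0.43.

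The same media were compared at 39 and 76 h with other samples, so the 3 differences share none. At 39 h 141 genes (0.746%) rose on phosphate removal and 14 (0.074%) fell, and at 76 h 756 (4%) rose and 920 (4.87%) fell. Of the 229 genes higher at 52 h, 127 (55.5%) were higher at 39 h and 208 (90.8%) at 76 h, and these are 90.1% and 27.5% of the higher genes of those times. Of the 188 genes lower at 52 h, 11 (5.85%) were lower at 39 h and 167 (88.8%) at 76 h. The median log2 difference of the higher genes was 1.13, 1.51 and 2.30 at 39, 52 and 76 h, and that of the lower genes −0.44, −1.16 and −1.51, where the 52 h values were used to choose the genes. One −Fe−P library at 39 h, replicate 1, stood apart, with 507 genes at least 2-fold from both other replicates.

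**Figure D4:**
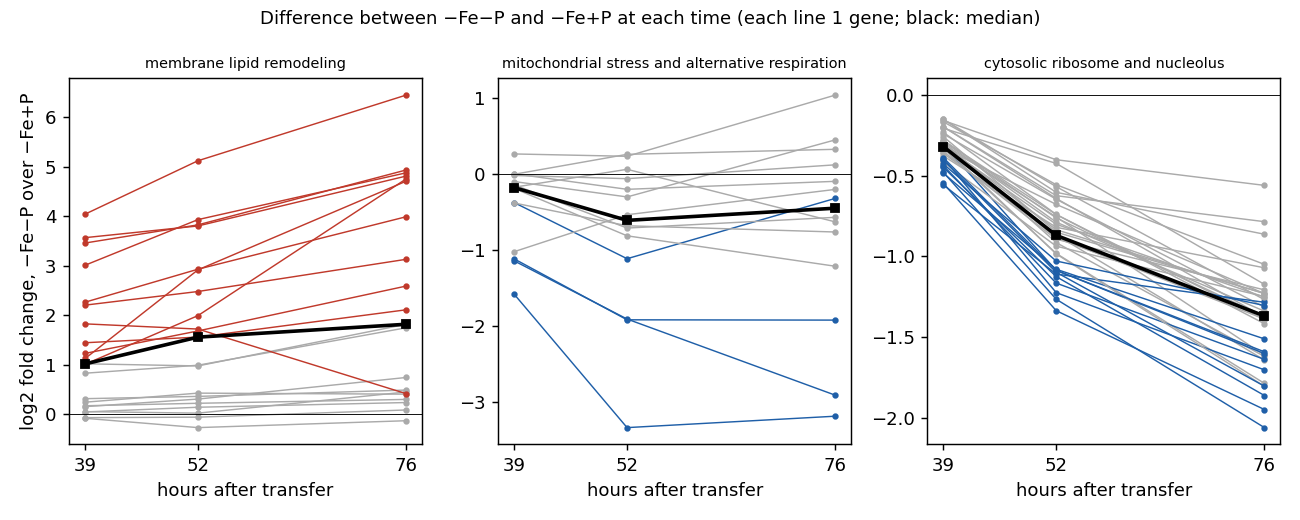
Log2 difference between −Fe−P and −Fe+P against hours after transfer for the tested members of 3 lists; each line is 1 gene, red or blue where called higher or lower at 52 h, and the black line is the median. The cytosolic ribosome and nucleolus median goes from −0.32 to −0.87 and −1.37, and the lipid remodeling median from 1.02 to 1.56 and 1.82. The mitochondrial stress median goes from −0.18 to −0.61 and then back to −0.45.

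Tested directly, the difference between the media was more positive at 52 h than at 39 h in 20 genes (0.106%) and more negative in 15 (0.0793%). PAP14 was among the first, with differences of 3.19 at 39 h and 5.61 at 52 h (change 2.41 ± 0.38, adjusted p = 0.00617), as were IPS1 (change 1.68), PAP24 (2.02), NEET (1.52) and NYC1 (1.13). Of these, NEET and NYC1 differed little at 39 h (−0.35 and 0.12). AT5G51440 was among the second, with −1.58 at 39 h and −3.33 at 52 h (change −1.75 ± 0.25, adjusted p = 0.00464), and so was ERF71 (change −1.34). Leaving out each of the 12 libraries in turn ended no call of PAP14, IPS1, PAP24 or AT5G51440, and ended that of NEET in 5 cases, ERF71 in 3 and NYC1 in 1. The counts lean on single libraries: they add up to 35 genes, and to 107 without −Fe−P 39 h replicate 1, 106 without −Fe−P 52 h replicate 1 and 10 without −Fe−P 52 h replicate 2.

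Between 52 and 76 h the difference became more positive in 275 genes (1.45%) and more negative in 133 (0.703%). SPX3 went from 4.96 to 7.24 (change 2.28), IPS1 from 6.42 to 8.50 (2.08) and PAP5 from 1.88 to 6.26 (4.38). GDPD2 was at 1.72 at 52 h and 0.42 at 76 h, and NAC13 at −1.11 and −0.32, changes that were not called, the first by its adjusted p (0.065 in limma) and the second because it was under 2-fold. In the cytosolic ribosome and nucleolus list none of the 37 genes was lower by 2-fold at 39 h, 11 were at 52 h and 34 at 76 h. In the anthocyanin list 1 gene was higher at 39 h, 1 at 52 h and 15 of 20 at 76 h.

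Set against +Fe+P at 52 h, the 2 groups stand differently in each direction, and because the comparisons share samples the values are given side by side only. Relative to +Fe+P, 526 genes (2.78%) were higher and 130 (0.687%) lower under −Fe+P, and 842 (4.45%) were higher and 150 (0.793%) lower under −Fe−P. For the 229 genes that phosphate removal raised, the median log2 over +Fe+P was 0.11 (−Fe+P) and 1.72 (−Fe−P). For the 188 lower genes it was 0.63 and −0.56, with 170 of them at estimates above 0 in the first and 158 below 0 in the second. The ribosome and nucleolus list stood at 0.12 and −0.73, and the mitochondrial stress list at 0.50 and 0.14. Among the lower genes are thus some whose −Fe−P level lay near that of +Fe+P, such as AT5G51440, and others whose −Fe−P level lay below it, as the median of the ribosome and nucleolus list shows.

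**Figure D5:**
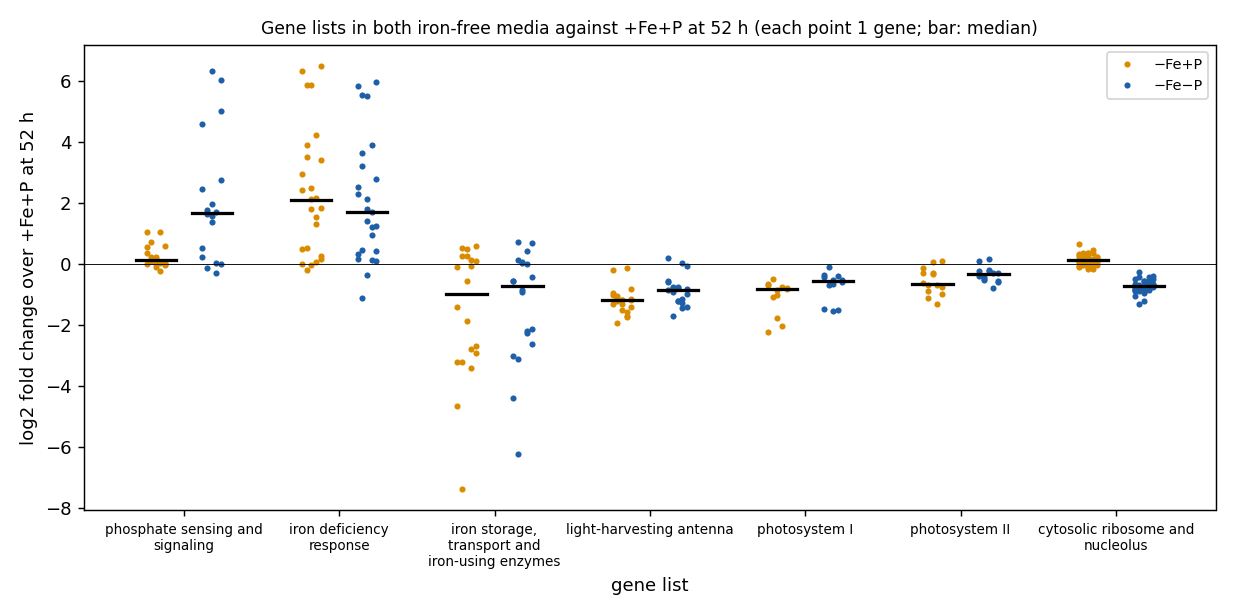
Log2 of −Fe+P over +Fe+P and of −Fe−P over +Fe+P at 52 h for the tested members of 7 lists; each point is 1 gene, and both values of a gene share the +Fe+P samples. Black bars are medians, which lie above 0 under both media for the iron deficiency list (2.11 and 1.69), and near 0 under −Fe+P (0.12) but below it under −Fe−P (−0.73) for the ribosome and nucleolus list.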

How the data were processed

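RNA-seq of polyadenylated RNA from 27 shoot samples (9 groups of 3) was analysed. The authors aligned reads with HISAT2 to the TAIR10 genome and deposited TPM per gene; versions, strand handling and the treatment of reads that map to several genes are not given in the sources used here. TPM are not counts, so limma replaced the authors' DESeq2. Genes whose mean TPM was 1 or more were kept, log2(TPM + 0.5) was fitted with 9 group means and no replicate block in limma 3.58.1 (R 4.3.3; eBayes with trend), and Benjamini-Hochberg adjusted p under 0.05 with at least 2-fold made a call. Symbols and promoters came from RefSeq (32835 of 33602 gene IDs matched).

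Depth was recovered from the steps of TPM values: the 24561 genes found in 10 or more samples gave whole reads within 0.02 reads, and libraries held 25.6 to 56.5 megareads. Simulated data of this comparison (18910 genes) held 100 genes set at 2-fold, of which 91 to 92 passed the adjusted p. Only 42 to 54 of them also met the fold limit, since estimates of genes set at that limit fall on either side of it. This count therefore does not measure how often the test misses a change. With 100 genes set at 3-fold, 96 to 97 met both limits, as did 1 to 2 unchanged genes.

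Named genes were the 12 with the largest change in each direction at a mean of at least 5 TPM in the higher group, up to 4 called members of each list, genes the study names, the other members of families described, and the largest changes between times; others are marked as chosen after their values were seen, except list members that passed the adjusted p. The genes, lists and rules were chosen with earlier results of these data known. Alternatives were another pseudocount (0.1 or 1), no filter or at least 5 TPM, only the 6 samples, median-of-ratios scaling, a replicate block, robust or trend-free variance, other fold limits, and leaving out each replicate.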

Additional observations from a re-analysis of the deposited data

Results flagged for a closer look

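The 3 differences between −Fe−P and −Fe+P share no samples, and the results here are those in which the difference itself changed with time by limma's test of the contrast (adjusted p under 0.05, at least 2-fold). It changed between 39 and 52 h in 35 genes and between 52 and 76 h in 408 genes. Between 39 and 52 h it grew in IPS1 (1.68), PEPC1 (1.35), AT3G43110 (1.39), PAP14 (2.41), AT1G08310 (1.02), PAP24 (2.02), GDPD6 (1.79), PAP5 (1.66) and AT5G17340 (1.45), and it became more negative in AT5G51440 (−1.75), EMB3120 (−1.27) and AT5G14580 (−1.23). Leaving out each of the 12 libraries in turn ended the call of PEPC1 in 10 cases, AT3G43110 and AT1G08310 in 8 each, AT5G17340 in 5, GDPD6 and AT5G14580 in 4 each and PAP5 and EMB3120 in 2 each, and ended none of IPS1, PAP14, PAP24 and AT5G51440.

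Between 52 and 76 h it grew in phosphate starvation genes, namely IPS1 (2.08), PEPC1 (1.79), PAP14 (1.69), MGDC (1.33), SPX3 (2.28), PS2 (1.33), PAP24 (1.97), GDPD6 (1.79) and PAP5 (4.38), and in the loci AT1G23110 (1.13), AT3G43110 (1.44), AT3G25240 (1.63), AT5G20790 (1.28) and AT5G17340 (3.81). The MIR399d value (4.69) comes from a gene with no reads in −Fe+P at 52 h, so its size depends on the pseudocount. TOM7-2 became more negative (−1.001), and AT2G04050 changed by 1.08, from a larger to a smaller decrease. Leaving out each of the 12 libraries in turn ended the call of AT1G23110 in 10 cases, AT2G04050 in 8, TOM7-2 in 5, AT5G20790 in 4 and MGDC in 3, and ended none of the others in this paragraph. The gap between the lowest or highest sample and the rest was not tested, since every group held 3 samples.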

How the results depend on the processing

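The counts at 52 h, 229 higher and 188 lower, stayed within 1.5 times under another pseudocount (258 and 232 with 0.1, 211 and 146 with 1), no filter (245 and 192), a minimum of 5 TPM (167 and 137), the 6 samples alone (226 and 188), robust variance (226 and 186) and no trend (228 and 188). Median-of-ratios scaling gave 250 and 154, moved the share of higher calls from 54.9% to 61.9% and moved the median of all genes from −0.031 to 0.013. Without a fold minimum there were 1848 and 3283 genes, with 419 changed between 39 and 52 h and 2144 between 52 and 76 h. With a minimum of 1.5-fold these counts were 636, 1057, 229 and 1296. The minimum of 5 TPM gave 248 genes between 52 and 76 h. Leaving out 1 replicate gave 205 to 299 higher and 139 to 281 lower genes, 10 to 107 changed between 39 and 52 h and 250 to 496 between 52 and 76 h. For the first of these times the count of 35 became 107 without −Fe−P 39 h replicate 1, 106 without −Fe−P 52 h replicate 1, 10 without −Fe−P 52 h replicate 2, 14 without −Fe−P 52 h replicate 3, 15 without −Fe+P 39 h replicate 2, 20 without −Fe+P 52 h replicate 1 and 21 without −Fe−P 39 h replicate 3. For the second, 408 became 250 without −Fe−P 76 h replicate 2. The cause of these shifts was not tested.

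The deviations of same-numbered replicates from their group means correlated at −0.265, 0.122 and −0.277. With 3 replicates per group these values cannot decide whether the numbers pair the samples. A fit with the replicate block gave 228 higher and 190 lower genes, with 36 and 408 changed between times. No called value changed direction in these settings. PHR1, which was not called (−0.01), had estimates above 0 under median-of-ratios scaling (0.038), without −Fe+P replicate 1 (0.023), without −Fe−P replicate 1 (0.071) and without −Fe−P replicate 3 (0.006). Among the differences at 52 h of named genes, 48 calls over all settings were lost, most often for BAP1, PHT1;2, AT5G18600 and AT3G22660, and among their changes between times 159 were lost. SNOR77 lost its call with the 6 samples alone (adjusted p = 0.06 in limma). AT1G51400 passed without −Fe−P 52 h replicate 1 (1.09, adjusted p = 0.0111 in limma). Depth limits genes near 1 TPM, which rested on medians of 26.5 to 39.0 reads per library.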
